A study of Homo sapiens with 4 samples.

Results

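The 9 genes described here encode kinases of the phosphatidylinositol 3-kinase-related family (PRKDC, ATM, ATR, SMG1 and the family's kinase-dead member TRRAP) and proteins that bind DNA ends or breaks (XRCC5, XRCC6, PARP1 and TP53BP1). They were chosen by family and function and not by a measured value, although earlier results of these data were known when they were chosen. Their IGF2BP2 peaks were the sense peaks listed under the Ensembl identifier of each gene in both lists of IGF2BP2-bound RNA. A sense peak lay mainly in coding sequence (CDS), untranslated region (UTR), noncoding exon or intron on the strand of the gene. All 9 genes had a sense peak, among 20428 genes of any type with a sense peak in either list. They held 159 of 74237 sense peaks in replicate 1 and 205 of 77288 in replicate 2.

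The data came from untreated Jurkat cells, a human T-cell acute lymphoblastic leukemia line. IGF2BP2, an RNA-binding protein and reader of N6-methyladenosine, was crosslinked to RNA with UV light and immunoprecipitated with an anti-IGF2BP2 antibody, and the bound RNA was sequenced (iRIP-seq). The study had 2 IGF2BP2 immunoprecipitation libraries and 2 input libraries. Only the peak lists of the former were used, which the study describes as independent replicate experiments without saying whether the cultures were separate. If they were not, the spread between them may be technical. There was a single condition, so the comparisons below are between genes, gene regions and the pair of libraries. The height of a peak is given in tags without adjustment for depth, which is unknown. Replicate 1 lists heights from 4 tags and replicate 2 from 5 tags, so a peak of 4 tags could appear in replicate 1 only. Input values were not used, so the number and height of peaks are not relative to the amount of each RNA.

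Kinases of this family are very large proteins that phosphorylate serine and threonine. PRKDC encodes the catalytic subunit of DNA-dependent protein kinase, which is recruited to broken DNA ends by the Ku heterodimer of XRCC5 and XRCC6 for non-homologous end joining. ATM responds to double-strand breaks and ATR to single-stranded DNA at stalled forks, whereas SMG1 phosphorylates UPF1 in nonsense-mediated mRNA decay and TRRAP is a scaffold of histone acetyltransferase complexes. PARP1 senses strand breaks and adds ADP-ribose chains, and TP53BP1 is an adaptor that steers break repair toward end joining. T cells use the Ku and PRKDC pathway to join T-cell receptor gene segments during their development.

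The genes fell far apart in the number of peaks. TRRAP had 52 peaks in replicate 1 and 54 in replicate 2, PRKDC 33 and 46, and SMG1 22 and 26. PARP1 had 18 in each, XRCC5 17 and 12, XRCC6 5 and 17, TP53BP1 7 and 13, ATM 4 and 13, and ATR 1 and 6. The median gene with a sense peak had 2 peaks in each list. Hence TRRAP and PRKDC stood above the other 7 genes in both libraries by listed peaks. The order of XRCC5, XRCC6, TP53BP1 and ATM was not the same in replicate 1 as in replicate 2. In replicate 1, 23 of the 33 PRKDC peaks stood at 4 tags, a height that replicate 2 does not list. So did 22 of the 52 TRRAP peaks, 10 of 22 for SMG1 and 4 of 18 for PARP1. Without peaks of 4 tags, TRRAP still led in replicate 1, but PRKDC fell below SMG1 and PARP1. The total over the 9 genes was 182 ± 32.5 peaks (SD, n = 2). All 9 genes had a peak in both replicates, as did 59.5% of all genes with a sense peak in either list.

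**Figure D1:**
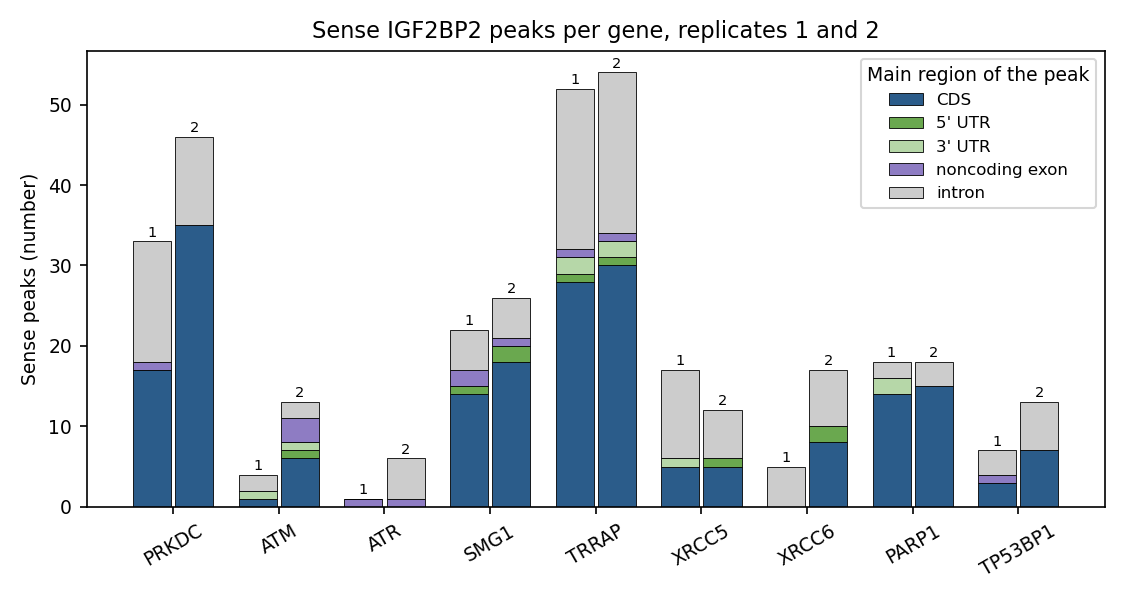
Number of sense IGF2BP2 peaks (vertical axis) of each of the 9 genes (horizontal axis), with 1 bar for each replicate, numbered above it, divided by the main region of the peaks. TRRAP has the tallest bars, 52 and 54 peaks, and ATR the shortest, 1 and 6.

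TRRAP (ENSG00000196367.14, chromosome 7, plus strand, 135 kb) ranked 57th in replicate 1 and 74th in replicate 2 among the 20428 genes by number of peaks, and 23rd and 37th by number of CDS peaks. CDS was the main region of 28 TRRAP peaks in replicate 1 and 30 in replicate 2, and an intron that of 20 in each. Only 4 and 6 peaks lay wholly in an intron, and the others counted as intronic reached into an exon. The peaks spanned the gene from its first exon onward, with 11, 17 and 20 peaks in the first, middle and last of 3 equal lengths of the RefSeq interval in replicate 1 and 15, 19 and 18 in replicate 2. A further 4 and 2 peaks, of 4 or 5 tags, lay beyond the RefSeq end of TRRAP within the authors' longer gene model, where RefSeq places LOC101927550 and SMURF1.

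A TRRAP peak that overlapped one of the other library is called shared, and 23 peaks in each replicate were (44.2%, 95% Wilson interval 31.6% to 57.7%, of replicate 1 and 42.6%, 30.3% to 55.8%, of replicate 2). Such intervals take in no more than counting error, since PCR copies of a molecule are not independent. The site that was highest by the lower of its heights, chr7:98962300-98962350 (GRCh38, positions as listed), was almost wholly CDS and had 9 tags in replicate 1 and 11 in replicate 2. The highest TRRAP peak of replicate 1, at chr7:98964600-98964650, had 11 tags and no counterpart. In replicate 2 the highest peaks had 15 tags, at chr7:98971750-98971800 without a counterpart and at chr7:98978750-98978800 with 8 tags in replicate 1. The first exon also carried a shared peak, with 7 tags in replicate 1 and 6.5 in replicate 2, mainly in the 5′ UTR.

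PRKDC (ENSG00000253729.8, chromosome 8, minus strand, 187 kb) had 33 peaks in replicate 1, of 4 to 8 tags with a median of 4, and 46 in replicate 2, of 5 to 20 tags with a median of 6. CDS was the main region of 17 peaks (51.5%) in replicate 1 and 35 (76.1%) in replicate 2, and introns of 15 and 11. The CDS share of the libraries was compared for every gene with a peak in both. Of 12154 genes tested, none passed an adjusted p of 0.05 (two-sided Fisher's exact test with Benjamini-Hochberg adjustment over all these genes), and 27 had an unadjusted p under 0.05. For PRKDC the difference of 24.6 percentage points had an unadjusted p of 0.0311 and an adjusted p of 1.0 by that exact test. That comparison includes the 23 of 33 PRKDC peaks of replicate 1 that stood at 4 tags, a height only replicate 1 lists. Among its other PRKDC peaks the CDS share lay closer to that of replicate 2, and this was not tested. The median gene with a sense peak had 2 peaks in each list, and with so few the test cannot reach 0.05. Adjustment over all genes was thus strict. No difference between the libraries was detectable for PRKDC after it, which does not show that the shares were equal.

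The PRKDC peaks were spread over its whole length, with 14, 10 and 9 peaks in the first, middle and last of these lengths in replicate 1 and 15, 17 and 14 in replicate 2. In each replicate 12 PRKDC peaks were shared, which is 36.4% (22.2% to 53.4%) and 26.1% (15.6% to 40.3%). The best shared PRKDC site, chr8:47830600-47830650, lay mainly in CDS with 8 tags in replicate 1 and 11 in replicate 2. The highest peak of replicate 2, 20 tags at chr8:47831800-47831850, lay close to it and had no counterpart in replicate 1. It was the highest peak of the 9 genes. At chr8:47936350-47936400 the heights were 4 and 13 tags, and at chr8:47913900-47913950 they were 5 and 11 tags, so replicate 2 was higher at both. At 4 of the 12 shared PRKDC sites replicate 1 had 4 tags, so replicate 2 had to be higher. At the other 8 replicate 2 was higher at 7 and equal at 1.

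SMG1 (ENSG00000157106.17, chromosome 16, minus strand, 122 kb) had 22 and 26 peaks, with 14 and 18 mainly in CDS and 5 in introns in each. Its highest peak in both replicates lay in the 5′ UTR of the first exon, at chr16:18926150-18926200 with 11 tags in replicate 1 and at chr16:18926150-18926250 with 14 tags in replicate 2. SMG1 was the only one of the 9 genes whose best shared site lay mainly in a UTR. Further shared sites of SMG1 included chr16:18852300-18852350 with 9 and 7 tags and chr16:18841550-18841600 with 4 and 10 tags. In each list 10 SMG1 peaks were shared (45.5%, 26.9% to 65.3%, in replicate 1 and 38.5%, 22.4% to 57.5%, in replicate 2). RefSeq lists 7 SMG1 pseudogenes on the same chromosome, and only uniquely mapped reads were kept. Reads that fit both SMG1 and a copy would be missing, so its peak number is uncertain.

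ATM (ENSG00000149311.20, chromosome 11, plus strand) and ATR (ENSG00000175054.16, chromosome 3, minus strand) had no shared peak over gene lengths of 146 and 129 kb. ATM had 4 peaks in replicate 1, of 4, 4, 4 and 6 tags, and 13 in replicate 2, of 5 to 9 tags. Even so, 71.7% of all genes in replicate 1 and 93.9% in replicate 2 had fewer peaks than ATM, and 81.2% and 87.1% had a lower highest peak. These shares are over the 20428 genes with a sense peak in either list, and a gene without one in a replicate counted as lower there. Genes with one numbered 16756 in replicate 1 and 15826 in replicate 2. All 4 peaks of replicate 1 lay in the second part of the gene, at 92.8 kb or more from its start, whereas those of replicate 2 ran from the first exon to 142 kb. Of the ATM peaks 1 and 6 lay mainly in CDS. RefSeq places another gene, C11orf65, over part of ATM, as it does TUBGCP4 over part of TP53BP1.

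ATR had 1 peak of 4 tags in replicate 1, in a noncoding exon, and 6 peaks of 5 tags in replicate 2, of which 5 lay in introns and 1 in a noncoding exon. Every ATR peak had the lowest height of its list. None touched CDS, none was shared, and all lay within the first 27.7 kb of the gene, or 21.4% of its length. In the second replicate 82.1% of all genes had fewer peaks than ATR, but only 22.5% had a lower highest peak. The latter were the genes without a sense peak in that replicate, since ATR stood at the lowest height of the list.

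**Figure D2:**
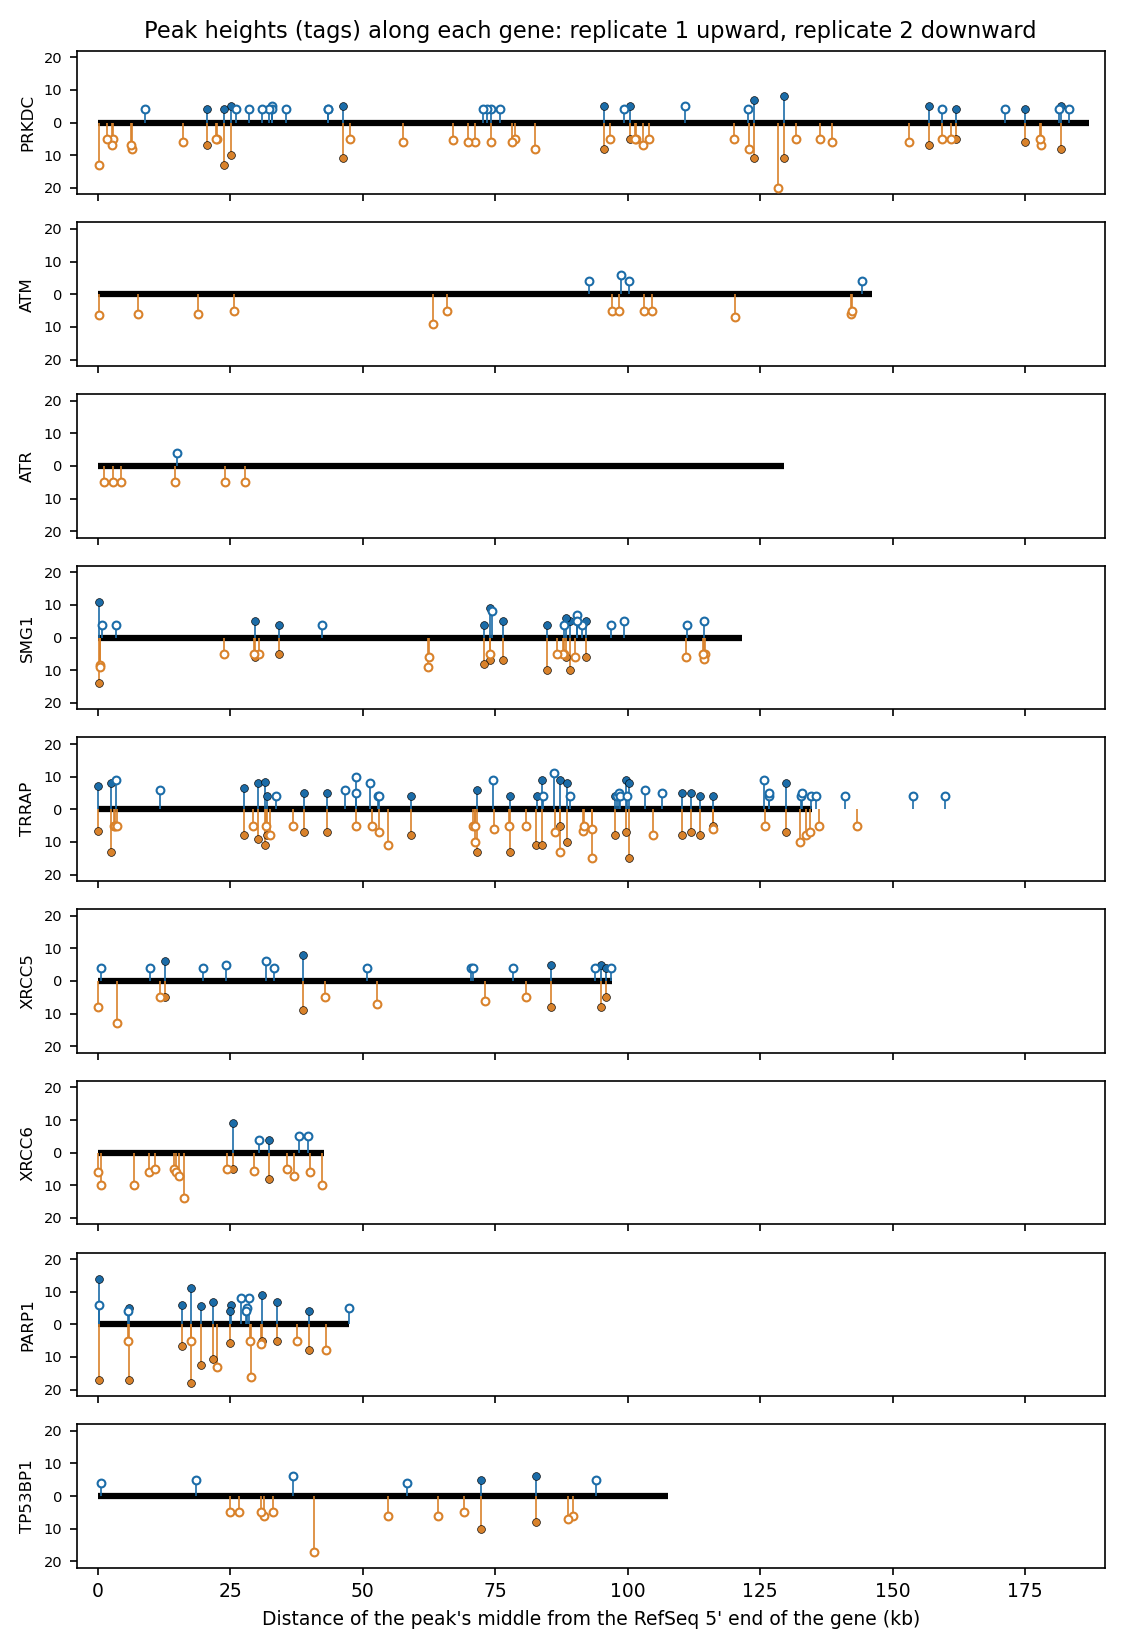
Height of each sense peak in tags (vertical axis, replicate 1 upward in blue and replicate 2 downward in orange) against the distance of its middle from the RefSeq 5′ end of the gene in kb, with the gene drawn as a black bar and shared peaks filled. TRRAP and PRKDC peaks cover the genes from end to end, all ATR peaks lie within 27.7 kb of the start, and no ATM or ATR peak is filled.

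One ATM peak lay at the 5′ end of the gene, at chr11:108223150-108223300, wholly in the 5′ UTR, with a height of 6.33 tags in replicate 2 only. One XRCC6 peak lay at the same place of its gene, at chr22:41621300-41621350, with 6 tags in replicate 2 only. RefSeq (GRCh38.p14) start windows were read for ATM, ATR, SMG1, XRCC6, PARP1 and TP53BP1, and not for TRRAP, PRKDC and XRCC5. Among the peaks of those 6 genes only these reached into a window, so part of their sequence can be shown. GGA followed by any base is the motif the study gives for IGF2BP2. GGA was searched on the RNA strand only and is given in capitals in 30 bases of each peak, from chr11:108223197-108223226 (plus strand) and chr22:41621301-41621330 (plus strand).

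ATM: GGAggcaacgcagcggcttctgcgctgGGA

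XRCC6: GGAttgtcgtcttctgtccaagttggtcgc

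GGA occurred 2 times in the 150 bases of the ATM peak and 1 time in the 44 bases of the XRCC6 peak inside the window. Of 35116 RefSeq start windows, 92.5% held GGA in the stretch at the position of the ATM peak and 63.0% in that of the XRCC6 peak, so such a match is frequent. GGAC, the core of the N6-methyladenosine motif, was in neither searched stretch and in 42.1% and 17.2% of the windows.

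Of the Ku subunits, XRCC5 (ENSG00000079246.16, chromosome 2, plus strand, 96.9 kb) had 17 peaks in replicate 1 and 12 in replicate 2, and XRCC6 (ENSG00000196419.13, chromosome 22, plus strand, 42.7 kb) had 5 and 17. The one had more listed peaks in replicate 1 and the other in replicate 2, and this was not tested. In replicate 1, 11 of the 17 XRCC5 peaks and 2 of the 5 XRCC6 peaks stood at 4 tags, which replicate 2 does not list. Without those peaks both genes had more peaks in replicate 2. Of the XRCC5 peaks 5 in each replicate lay mainly in CDS, and 5 in each were shared (29.4%, 13.3% to 53.1%, and 41.7%, 19.3% to 68.0%). The best shared XRCC5 site, chr2:216148050-216148100, crossed from CDS into an intron and had 8 tags in replicate 1 and 9 in replicate 2. A CDS peak near its 5′ end, chr2:216113000-216113050, had 13 tags in replicate 2 and no counterpart.

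No XRCC6 peak of replicate 1 lay mainly in CDS, against 8 of 17 in replicate 2 (0 of 5, Wilson interval 0 to 43.4%, and 47.1%, 26.2% to 69.0%). The difference was not detectable (unadjusted p = 0.115, adjusted p = 1.0, the same exact test over all genes). The shared XRCC6 sites were chr22:41646850-41646900, with 9 tags in replicate 1 and 5 in replicate 2, and chr22:41653500-41653550, with 4 and 8. The highest XRCC6 peak, 14 tags at chr22:41637600-41637650, was mainly in CDS and was listed in replicate 2 only. All 5 peaks of replicate 1 lay in the second part of the gene, at 25.6 kb or more from its start, whereas 5 of the 17 peaks of replicate 2 lay in the first of 3 equal lengths. RefSeq lists 5 XRCC6 pseudogenes and 2 PARP1 pseudogenes on other chromosomes, so reads shared with these copies may be missing here too.

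PARP1 (ENSG00000143799.14, chromosome 1, minus strand) had 18 peaks in each replicate within a gene of 47.4 kb. That was 3.80 peaks per 10 kb of gene in both, beside 3.86 and 4.01 for TRRAP, 1.76 and 2.46 for PRKDC and 0.0772 and 0.463 for ATR. XRCC6 had 1.17 and 3.98, so it stood above PARP1 in replicate 2. The PARP1 count of replicate 1 includes 4 peaks of 4 tags, which replicate 2 does not list. The TRRAP values are somewhat too high, because they include the 4 and 2 peaks beyond the RefSeq end. The order of TRRAP and PARP1 is therefore not settled. CDS was the main region of 14 PARP1 peaks in replicate 1 (77.8%, 54.8% to 91.0%) and 15 in replicate 2 (83.3%, 60.8% to 94.2%), and no PARP1 peak lay wholly in an intron. Of its peaks, 11 in replicate 1 (61.1%, 38.6% to 79.7%) and 10 in replicate 2 (55.6%, 33.7% to 75.4%) were shared. By the lower of its heights, the tallest shared site of the 9 genes was in PARP1, at chr1:226407800-226407850 across the edge of a coding exon 0.268 kb from the 5′ end, with 14 tags in replicate 1 and 17 in replicate 2. A second site, chr1:226390400-226390450, had 11 and 18 tags, and both lay mainly in CDS. At chr1:226402200-226402300 replicate 1 had 5 tags, and an overlapping peak of replicate 2 had 17.

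TP53BP1 (ENSG00000067369.14, chromosome 15, minus strand, 108 kb) had 7 peaks of 4 to 6 tags in replicate 1 and 13 peaks of 5 to 17 tags in replicate 2. Of these, 3 and 7 lay mainly in CDS. Both shared sites of TP53BP1 were mainly CDS, chr15:43428000-43428050 with 6 and 8 tags and chr15:43438300-43438350 with 5 and 10. The peak of 17 tags, chr15:43469850-43469900, was also in CDS and had no counterpart in replicate 1.

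A height of 10 tags or more was seen in 5 of the 159 peaks of replicate 1 (3.14%) and 37 of the 205 of replicate 2 (18%), beside 2.73% and 8.75% of all sense peaks. The genes with such a peak in both replicates were SMG1, TRRAP and PARP1, 3 of 9, and 3.96% of all genes had one. In replicate 2 alone 7 of the 9 genes had such a peak, all but ATM and ATR. The share of all genes with one in replicate 2 alone was not counted. There, 87.1% of all genes, those without a peak included, had a highest peak below the 9 tags of ATM. ATM ranked 2181st of the 20428 genes by highest peak in replicate 2, so fewer genes than that reached 10 tags. In replicate 1, 78 of the 159 peaks (49.1%) stood at the list's minimum, and in replicate 2, 80 of 205 (39.0%) did, against 66.8% and 54.4% of all sense peaks.

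**Figure D3:**
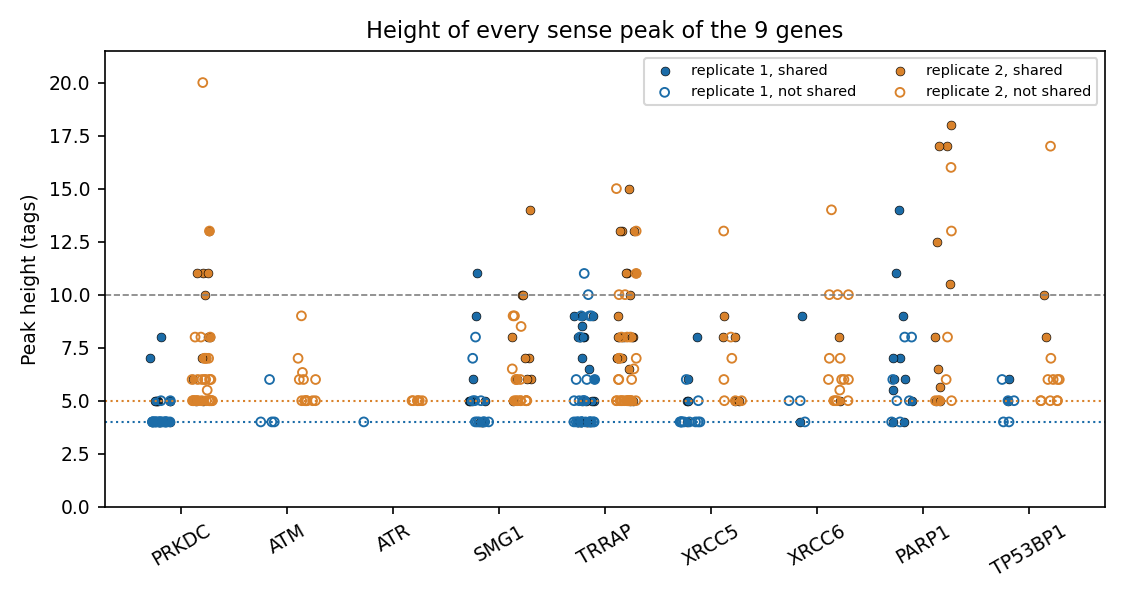
Height in tags (vertical axis) of every sense peak of the 9 genes, with replicate 1 in blue, replicate 2 in orange and shared peaks filled; points are shifted sideways to separate them. The dotted lines mark the lowest listed heights, 4 and 5 tags, and the dashed line 10 tags, which 5 peaks of replicate 1 and 37 of replicate 2 reach.

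Over the 9 genes, 82 of 159 peaks lay mainly in CDS in replicate 1 (51.6%, 43.9% to 59.2%) and 124 of 205 in replicate 2 (60.5%, 53.7% to 66.9%). Among all sense peaks the shares were 19.9% and 25.6%. The libraries were 8.92 percentage points apart, which was not a detectable difference (p = 0.110 by Fisher's exact test, two-sided, over peaks of the libraries and not over conditions). That test takes peaks as independent, although 65 and 64 of them overlapped a peak of the other list and all lay in 9 genes. Without the peaks of 4 tags, which only replicate 1 lists, the difference turned to -2.48. Introns held 63 and 65 peaks, and noncoding exons 6 in each. The 5′ UTR had 2 and 7 and the 3′ UTR 6 and 3. The edge between CDS and intron was spanned by 87 of 159 peaks (54.7%) and 121 of 205 (59.0%), as 15.5% and 21.0% of all sense peaks did. With TRRAP, the gene with the most peaks, left out, CDS held 50.5% and 62.3%.

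These edge peaks made up most of the sites found in both libraries. Shared peaks numbered 65 in replicate 1 (40.9%, 33.5% to 48.6%) and 64 in replicate 2 (31.2%, 25.3% to 37.9%), beside 16.6% and 15.8% of all sense peaks. By gene, 7 of the 9 had a shared site, all but ATM and ATR, against 16.4% of all genes. Peaks across a CDS and intron edge were overlapped in 49 of 87 cases in replicate 1 (56.3%) and 52 of 121 in replicate 2 (43.0%), close to the 53.4% and 38.7% of such peaks in all genes. Peaks with CDS and neither intron nor UTR were overlapped in 12 of 28 cases (42.9%) and 8 of 41 (19.5%), against 37.3% and 27.6%. None of the 30 wholly intronic peaks of replicate 1 (0 to 11.4%) and none of the 28 of replicate 2 (0 to 12.1%) was overlapped, and 2.91% and 3.22% were in all genes. Within each of these classes the share of all genes lay inside the interval of the 9 genes.

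**Figure D4:**
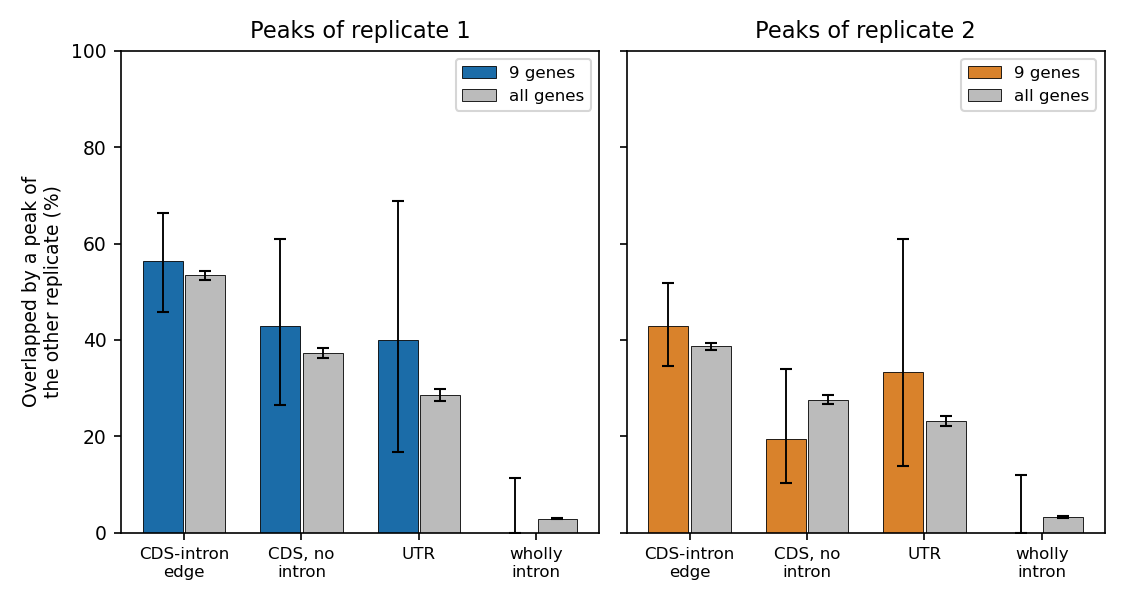
Percent of peaks that were shared between the replicates (vertical axis) by what the peak spans (horizontal axis), for the 9 genes (coloured) and all genes (grey), with 95% Wilson intervals as error bars. Edge peaks of the 9 genes reach 56.3% and 43.0% and wholly intronic peaks 0, and in each class the value of all genes lies within the interval of the 9 genes.

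At 53 of the 65 shared sites replicate 2 had the greater height, at 2 the heights were equal and at 10 replicate 1 was higher, with a median ratio of 1.40. At 18 of the 53 replicate 1 had 4 tags, and the minimum of 5 tags in replicate 2 fixed the direction. At the other 47 sites replicate 2 was higher at 35, with a median ratio of 1.33. Among all 12358 shared sense sites the median ratio was 1.41 and replicate 2 was higher in 78.0%, and with 5 tags or more in replicate 1 these were 1.29 and 68.4%. At the 9 genes the ratio ran from 0.556 to 3.40, and its highest value was at the PARP1 site of 5 and 17 tags. At 48 of the 65 sites both lists gave the same start and end, as at 8370 of the 12358 sites of all genes. Starts lie on a grid of 50 nt, and 97.1% and 94.7% of the listed peaks cover a single step of it. Overlapping peaks of that length must have the same ends, so such matches were largely set by the grid. The shared peaks had a median of 5 tags in replicate 1 and 8 in replicate 2, and those not shared 4 and 5.5.

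**Figure D5:**
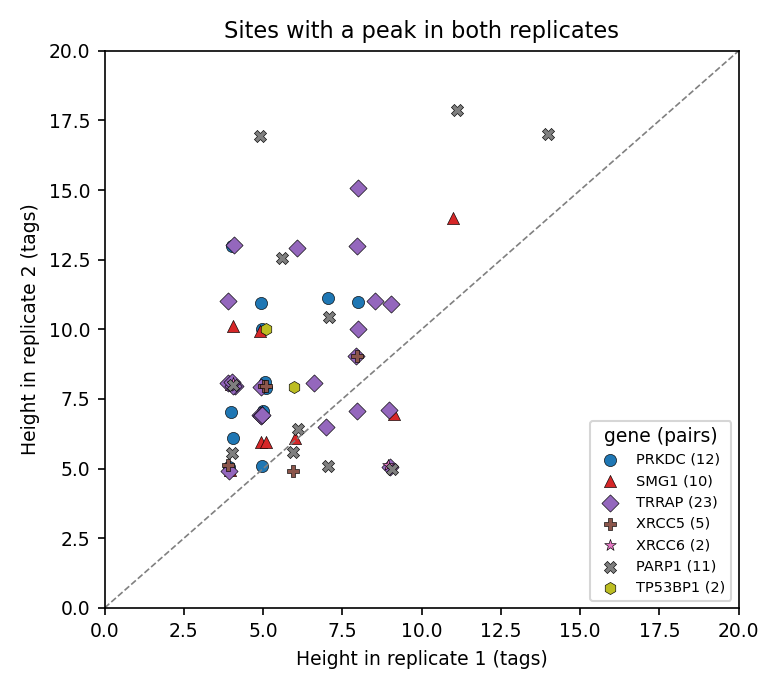
Height in replicate 2 against height in replicate 1, in tags, of the 65 sites with a peak in both replicates; symbols give the gene, the number of sites is in brackets, and the dashed line marks equal heights. Points are shifted slightly to separate them, and 53 sites lie above the line, 18 of them with 4 tags in replicate 1.

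The partners of these proteins were counted beside them, from a list of 47 genes of the same pathways. For 5 of the 47 no identifier with a sense peak could be assigned. Of the 42 others, each with a sense peak in either list, 34 had one in both replicates (81.0%, against 59.5% of all such genes). That count was 21 with a minimum of 5 tags and 12 with a p-value under 0.001. A shared site was found in 22 of the 42 (52.4%, against 16.4%), and 4 reached 10 tags in each library (9.52%, against 3.96%). Over all 47, the median was 3 peaks in replicate 1 and 4 in replicate 2, against 17 in each for the 9 genes. CDS was the main region of 42.4% and 47.1% of the partners' peaks, and 28.6% and 23.4% were overlapped by the other replicate.

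By pathway, and over all 47 genes, nonsense-mediated decay had a peak in both replicates in 7 of 8 genes, and the complexes of TRRAP in 7 of 8. Break sensing and signalling had 6 of 8, replication checkpoint 4 of 7, non-homologous end joining 4 of 7, single-strand break repair 4 of 6, and the TTT complex, which helps to assemble kinases of this family, 2 of 3. RAD50, counted among the 6 for break sensing, was matched by position to ENSG00000283782.2, which may be a model joining it to a neighbouring gene. Counting only genes with a sense peak in either list, decay had 7 of 7, checkpoint 4 of 5, end joining 4 of 6 and TTT 2 of 2. The other pathways were unchanged, and 59.5% of all such genes had a peak in both. The TRRAP partners had 67 and 84 peaks and the decay factors 81 and 100, whereas the end-joining genes had 11 and 20. The partners with the highest peaks by the lower of the replicates were RUVBL2, an ATPase of chromatin complexes, with 13 tags in replicate 1 and 17 in replicate 2, and UPF2, a decay factor, with 13 and 12. They were followed by EP400, a chromatin remodeller that works with TRRAP, with 10.5 and 27 tags and 32 and 50 peaks. UPF1, the helicase that SMG1 phosphorylates, had 10 and 14 tags, and SMG5, which acts after that step, 9 and 15.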

How the data were processed

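Per the labels and the study's methods, RNA bound to IGF2BP2 in Jurkat cells was sequenced as 150 bp read pairs, demultiplexed with bcl2fastq and aligned to GRCh38 with TopHat2, and uniquely mapped reads were kept. The authors called peaks in each library by the ABLIRC strategy against 500 simulations per gene and removed peaks overlapping input peaks. The annotation is not given in the sources used here. The deposited height is a signal in tags, and the deposited p-value was used only as a filter. The region shares and identifiers are those of the authors.

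The region that took up most of a peak was its main region, and ties went to the region listed first. Positions were read as half-open intervals. A peak was shared if a peak of the other list on its strand overlapped it by 1 bp or more. Members were matched by Ensembl identifier, and this was checked by position in RefSeq (GRCh38.p14). Partner genes were named by position, with a margin of 1000 nt (0 where that was ambiguous), at least 80% of an identifier's CDS and UTR peaks inside the gene, and the RefSeq strand where known. Such names can be wrong where genes overlap. The members and lists were chosen with earlier results of these data known. All 9 members are named, together with the 5 partners whose lower highest peak was greatest.

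Intervals of shares are 95% Wilson intervals. Fisher's exact test (two-sided) was used for CDS shares between the libraries, per gene over all genes with a peak in both lists and adjusted over all of them rather than over the members alone. The test takes peaks as independent and does not pair the sites found in both libraries. Overlap and tests were checked on simulated data. The alternatives were minimum heights of 5 and 10 tags, a p-value under 0.001, 50% overlap, strand ignored, touching peaks, exonic peaks only, weighting by length, peaks by RefSeq interval and each replicate left out. TRRAP left out was added after the data were seen. Peak sequences beyond the RefSeq start windows were not analysed here. Python 3.11.15, numpy 2.4.6, pandas 2.3.3, scipy 1.17.1 and matplotlib 3.10.9 were used.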

Additional observations from a re-analysis of the deposited data

Results flagged for a closer look

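The lists also hold antisense peaks under the identifiers of the 9 genes, which entered no comparison. There were 34 in replicate 1, at all 9 genes, with heights of 4 or 5 tags, and 21 in replicate 2, at 6 genes, with heights of 5 or 6 tags. None overlapped a peak of the other library on its strand, and 29 and 16 of them stood at the lowest height of their list. Of all listed peaks of any class, 74.3% in replicate 1 and 62.6% in replicate 2 stood there. How often antisense peaks of all genes overlapped was not counted, so the lack of overlap is not shown to be particular to these genes. They made up 17.6% and 9.29% of the sense and antisense peaks of the 9 genes, against 28.1% and 23.0% over all genes. They are named here because they exceed a count of 0, and the inputs that would serve as a control were not analysed here.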

How the results depend on the processing

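Depth is unknown, and many peaks stand at the list minimum. At a minimum of 5 tags the peaks of replicate 1 fell to 81, its CDS share rose to 63.0% and the CDS difference reversed to -2.48 percentage points (exact test, p = 0.788). Overlap was then 58.0% of replicate 1 and 22.9% of replicate 2, and 21 partner genes had a peak in both. At 10 tags there were 5 and 37 peaks, CDS shares of 60% and 73.0%, overlaps of 60% and 8.11%, 3 members and 4 partner genes with a peak in both. The minimum held for both lists, so only 5 peaks of replicate 1 were left to overlap. Of the 37 peaks of replicate 2, 22 (59.5%) overlapped a replicate 1 peak of any height, beside 62.4% of such peaks in all genes. With a p-value under 0.001 there were 45 and 83 peaks, a CDS share of 68.7% in replicate 2, an overlap of 21.7% of replicate 2 and 12 partner genes. With exonic peaks only there were 96 peaks in replicate 1, CDS shares of 85.4% and 88.6% and an overlap of 50% of replicate 1. The cause was not tested beyond the fewer peaks counted. Leaving out a replicate gave 3 to 7 members with a peak of at least 10 tags, 9 members with any peak and 36 to 40 partner genes. Of the 20428 genes, 16756 had any sense peak in replicate 1 and 15826 in replicate 2. The share of all genes reaching 10 tags in a single replicate was not counted. The other 40 of 64 alternative values stayed within 1.5 times the count, within the interval or on the same side of the test threshold. No paired analysis was possible because the results come from peak lists of a single group, and the inputs that share replicate numbers with the immunoprecipitates were not analysed here.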
